A study of Homo sapiens with 9 samples.

Results

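The oxaliplatin-resistant ovarian carcinoma line IGROV-1/OHP stood apart from both its cisplatin-resistant counterpart and its parent at 38 of the 705 microRNA (miRNA) probes that passed a filter on dim values, out of 1145 probes on the array. At 18 of them IGROV-1/OHP was lower than both other lines and at 20 it was higher. The lower probes held the wide distances, up to 33.2-fold from the nearer line, whereas the higher probes lay between 1.43-fold and 2.48-fold from it. These probes were selected on the measured intensities themselves: a probe had to reach an intensity of 167 on at least 3 of the 9 arrays, all 3 IGROV-1/OHP arrays had to lie below or above all 6 arrays of the other lines, and the IGROV-1/OHP mean had to lie at least 0.5 on the log2 scale (1.41-fold) from the nearer line mean and further than the other lines lay from each other. The separation of IGROV-1/OHP at these probes is therefore a description of what was chosen, and no test is attached to it.

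Human IGROV-1 cells of 3 kinds were profiled on 9 Illumina bead arrays, 3 arrays per line. The groups were IGROV-1/OHP, derived from the parental cells by exposure to oxaliplatin, IGROV-1/Pt1, derived by exposure to cisplatin, and the parental IGROV-1 line, which is sensitive to cisplatin. The design text counts the 3 samples of each line as biological replicates, taken from growing cells. No drug dose, exposure time or drug-free interval before harvest is given in the labels, nor whether a resistant line is 1 clone, and each kind of resistance is represented by 1 line.

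MiRNAs are short RNAs that guide Argonaute proteins to messenger RNAs, mostly through a seed near the miRNA's 5′ end, and lower the stability or translation of the bound message. Cisplatin and oxaliplatin both form platinum adducts on DNA, and oxaliplatin leaves a bulkier diaminocyclohexane carrier on the metal. Resistance to platinum drugs is known to involve lower uptake or higher efflux, binding of the drug by thiols, repair or tolerance of adducts, and blunted apoptosis, and miRNAs have been studied as regulators of each of these. The files do not pair the Illumina probe identifiers with miRNA names, and 0 entries of the reference tables carry such an identifier. No miRNA, seed, sequence or genomic position is therefore given for a probe, and the labelled cell type was not checked against marker miRNAs. Probes are numbered within each direction by their distance from the nearer line, and the first 2 in each direction are also given by identifier.

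Values are deposited linear intensities with the SD over the 3 arrays of a line, and differences are between mean log2 intensities with the standard error (SE) of a limma fit over all 705 probes. The 9 arrays share nearly the same distribution of values, so an intensity here is in effect a rank within its array. The probes with the widest distance were well above the filter level in both other lines and near it in IGROV-1/OHP cells. The first lower probe, ILMN_3168064, had intensities of 276, 115 and 307 in IGROV-1/OHP cells, against 5465, 6362 and 10320 in IGROV-1/Pt1 cells and 10482, 8959 and 8102 in parental cells. All 6 arrays of the other lines lay at least 17.8-fold above the highest IGROV-1/OHP array. By rank from the brightest of the 1145 probes, it stood at rank 525 or further down on each IGROV-1/OHP array, against rank 211 or further up on each IGROV-1/Pt1 array and rank 171 or further up on each parental array. Its log2 difference was -5.05 (SE 0.40) from IGROV-1/Pt1 and -5.42 (SE 0.40) from parental cells.

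The second lower probe, ILMN_3168701, showed the same picture at a lower level. Its intensities were 124.4, 103 and 189 in IGROV-1/OHP cells, against 1601, 1624 and 3644 in IGROV-1/Pt1 cells and 2615, 2679 and 3009 in parental cells. The log2 difference was -3.98 (SE 0.35) from IGROV-1/Pt1 and -4.36 (SE 0.35) from parental cells. Only 1 of its IGROV-1/OHP arrays reached the filter level of 167, and for ILMN_3168064 2 of the 3 did. In both probes IGROV-1/OHP replicate 2 was the dimmest array, and IGROV-1/Pt1 replicate 3 was brighter than the other IGROV-1/Pt1 arrays.

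Lower probe 3 lay below the filter level on all 3 IGROV-1/OHP arrays, at 126.3, 65.8 and 114, against 1015, 1096 and 851 in IGROV-1/Pt1 cells and 769, 842 and 1534.5 in parental cells. With IGROV-1/OHP taken at the filter level, it was at least 5.88-fold lower than in IGROV-1/Pt1 cells and at least 5.98-fold lower than in parental cells. The measured log2 differences were -3.32 and -3.34 (SE 0.33 each). The means of IGROV-1/Pt1 and parental cells differed by only -0.02 at this probe.

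Lower probe 4 was well measured in every line. It gave 1362, 1032 and 1244 in IGROV-1/OHP cells, against 6029, 6682 and 8228 in IGROV-1/Pt1 cells and 5408, 8013 and 6760 in parental cells. The differences were -2.52 and -2.46 (SE 0.19 each) from IGROV-1/Pt1 and from parental cells, and even the closest arrays were 3.97-fold apart.

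Lower probe 5 was among the brightest probes of the array outside IGROV-1/OHP. Its intensities were 7546, 10919 and 6305 in IGROV-1/OHP cells, against 28734, 29502 and 28734 in IGROV-1/Pt1 cells and 28734 on each parental array. It held rank 137 to 197 on the IGROV-1/OHP arrays, rank 5 to 8 on the IGROV-1/Pt1 arrays and rank 8 on all parental arrays. The repeated value of 28734 goes with a repeated rank, as the arrays share 1 distribution, and the parental SD of 0 is not a measure of precision. The log2 difference was -1.85 from IGROV-1/Pt1 and -1.84 from parental cells (SE 0.18 each). Here IGROV-1/OHP replicate 2 was the brightest of its line, unlike in lower probes 1 to 4.

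The remaining 13 lower probes lay closer. Lower probes 6 to 9 were 2.22-fold to 2.63-fold from the nearer line, and lower probes 10 to 18 were 1.42-fold to 1.83-fold from it. Lower probe 7 shows a graded order of the line means, with 2258 ± 709 in IGROV-1/OHP cells, 5683 ± 2095 in IGROV-1/Pt1 cells and 8650 ± 1293 in parental cells (SD, n = 3 each). Its IGROV-1/Pt1 replicate 3, at 8102, lay within the parental range of 7546 to 10072. Lower probe 8 had the line means in another order, with 610.5 ± 207 in IGROV-1/OHP cells, 1861 ± 996 in IGROV-1/Pt1 cells and 1423 ± 286 in parental cells. The order of the last 2 rests on IGROV-1/Pt1 replicate 3, at 3009. The other IGROV-1/Pt1 arrays read 1329 and 1244, within the parental range of 1096 to 1624. Lower probes 11, 15 and 16 were bright in all lines and small in distance. For example, lower probe 11 read 10832 ± 972 in IGROV-1/OHP cells, 18912 ± 3054 in IGROV-1/Pt1 cells and 18801 ± 989 in parental cells. Over all 18 lower probes the median distance from the nearer line was 1.01 on the log2 scale. A distance of at least 2-fold was reached by 9, of at least 4-fold by 4 and of at least 8-fold by 3 as measured, or by 2 with IGROV-1/OHP taken at the filter level for lower probe 3.

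**Figure D1:**
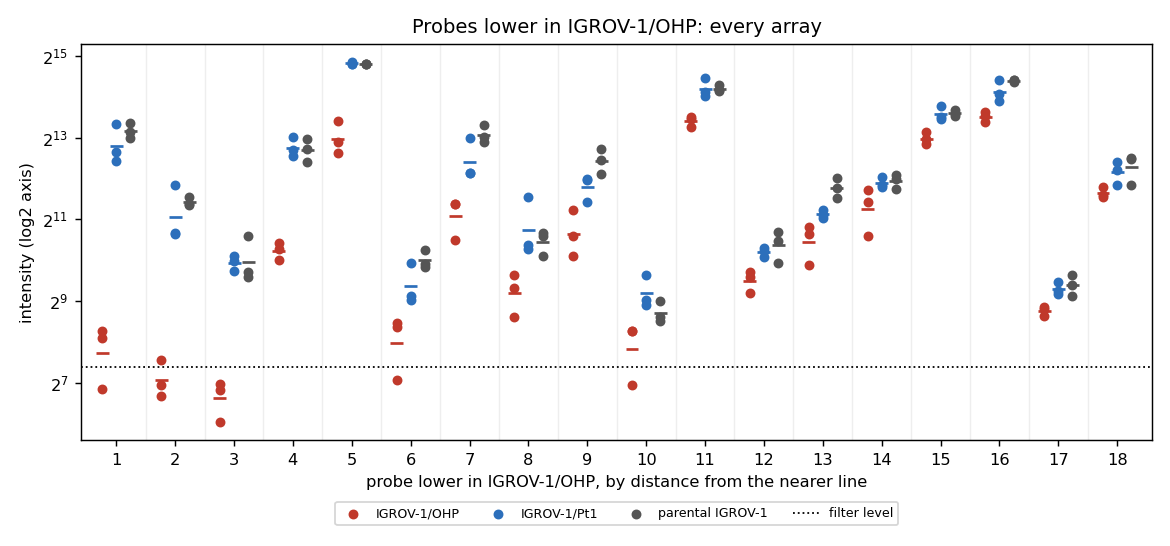
Intensity of the 18 probes lower in IGROV-1/OHP on each of the 9 arrays, on a log2 axis, ordered by distance from the nearer line; points are arrays, short bars the mean log2 intensity of a line and the dotted line the filter level of 167. Lower probes 1 to 3, 6 and 10 have at least 1 IGROV-1/OHP array below the filter level, while lower probes 10 to 18 are 1.42-fold to 1.83-fold from the nearer line.

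At the 20 probes higher in IGROV-1/OHP the distances were short. The median was 0.72 on the log2 scale, only 3 probes reached 2-fold from the nearer line and 0 reached 4-fold. The first, ILMN_3168813, had intensities of 5358, 5465 and 3498 in IGROV-1/OHP cells, against 2125, 1977 and 1601 in IGROV-1/Pt1 cells and 834, 986 and 1937 in parental cells. It was the higher probe with the clearest gap, 1.65-fold between the closest arrays. The log2 difference was 1.31 (SE 0.33) from IGROV-1/Pt1 and 2.0 (SE 0.33) from parental cells. Parental replicate 3 lay within the range of the IGROV-1/Pt1 arrays and the other parental arrays lay below it.

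The second, ILMN_3168795, gave 1253, 1624 and 1398 in IGROV-1/OHP cells, against 735, 792 and 412 in IGROV-1/Pt1 cells and 588, 656 and 862 in parental cells. The other lines overlapped and IGROV-1/OHP lay above both, with log2 differences of 1.19 from IGROV-1/Pt1 and 1.03 from parental cells (SE 0.27 each). Higher probe 3, the last at 2-fold or more, read 1223, 656 and 1421 in IGROV-1/OHP cells, against 610.2, 418 and 410.4 in IGROV-1/Pt1 cells and 396, 651 and 525 in parental cells. Its IGROV-1/OHP replicate 2 stood only 1.01-fold above parental replicate 2, so 1 array brought it to the edge of the rule.

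Higher probes 4 and 5 had smaller distances and tighter arrays. Higher probe 4 averaged 4174 ± 701 in IGROV-1/OHP cells, 2080 ± 165 in IGROV-1/Pt1 cells and 1861 ± 342 in parental cells (SD, n = 3 each). Higher probe 5 averaged 5238 ± 424.5 in IGROV-1/OHP cells, 2898 ± 255 in IGROV-1/Pt1 cells and 2735 ± 625 in parental cells. In each the closest arrays were 1.55-fold and 1.52-fold apart, and the differences from the nearer line were 0.99 (SE 0.17) and 0.85 (SE 0.18).

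Higher probes 6 to 20 lay 1.43-fold to 1.72-fold from the nearer line. The brightest of these were probe 19, at 19042 ± 2357 in IGROV-1/OHP cells, 10154 ± 1177 in IGROV-1/Pt1 cells and 13105 ± 774 in parental cells, and probe 12, at 12733 ± 319 in IGROV-1/OHP cells, 7862 ± 1288 in IGROV-1/Pt1 cells and 6883 ± 1056 in parental cells. The dimmest was higher probe 13, with 195.4, 295 and 208 in IGROV-1/OHP cells, 130, 95.8 and 100.4 in IGROV-1/Pt1 cells and 117, 185 and 131 in parental cells. It lay below the filter level on all IGROV-1/Pt1 arrays and was at least 1.37-fold higher in the IGROV-1/OHP line, with IGROV-1/Pt1 taken at the filter level. Of the 20 higher probes, 12 had closest arrays less than 1.2-fold apart, against 6 of the 18 lower probes.

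**Figure D2:**
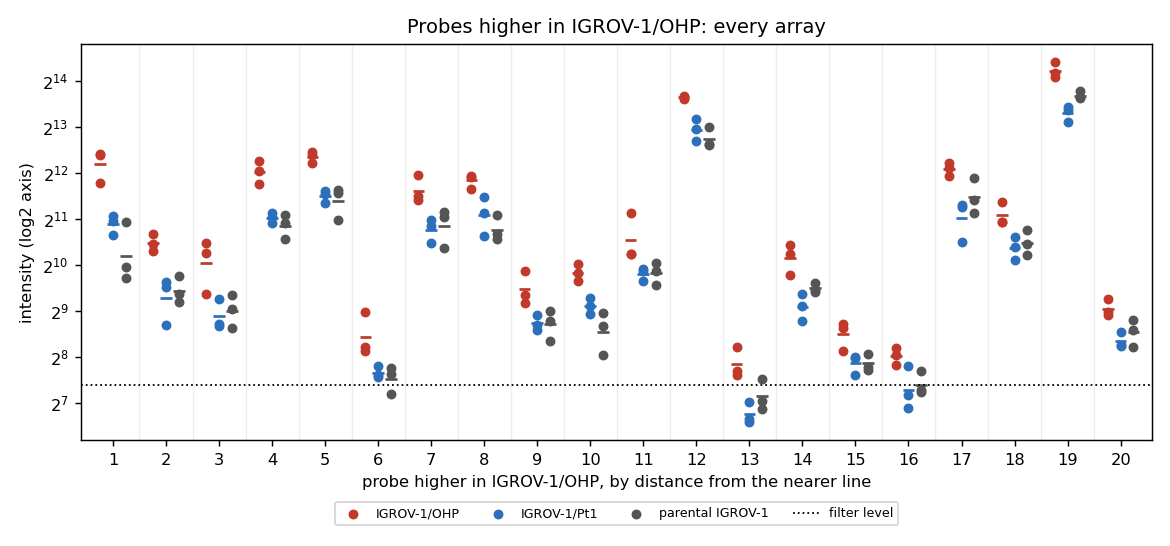
Intensity of the 20 probes higher in IGROV-1/OHP on each of the 9 arrays, on a log2 axis, ordered by distance from the nearer line; points are arrays, short bars the mean log2 intensity of a line and the dotted line the filter level of 167. The gap between the closest arrays runs from 1.01-fold to 1.65-fold.

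The nearer line was IGROV-1/Pt1 at 14 of the 18 lower probes and the parental line at 4, while among the higher probes it was IGROV-1/Pt1 at 9 and the parental line at 11. As IGROV-1/OHP lies on 1 side of both lines, this is the same as the order of the other line means. The IGROV-1/Pt1 mean was thus below the parental mean at 14 of the 18 lower probes, with a median log2 difference of -0.11. It was below at 11 of the 20 higher probes, with a median of -0.05. Over all 705 probes the median difference of IGROV-1/Pt1 minus parental cells was -0.02. The rule caps this difference, so its small size at the chosen probes, a median of 0.22 at the lower and 0.17 at the higher probes against 0.32 over all 705, follows from the choice. The IGROV-1/Pt1 and parental arrays were wholly separate at 2 lower probes and 2 higher probes, in each with IGROV-1/Pt1 below the parental arrays. Over all 705 probes IGROV-1/Pt1 was wholly below at 20.3% and wholly above at 21.1%, and the cap in the rule favours the low count among the chosen probes. At both of those higher probes, numbers 14 and 19, IGROV-1/OHP and IGROV-1/Pt1 thus lay on opposite sides of the parental arrays, with IGROV-1/OHP above, as at 1.28% of all tested probes. The reverse order, with IGROV-1/OHP below, was present at 0 of the lower probes and at 0.851% of all tested probes. The rule fixed the side of IGROV-1/OHP, so nothing is read from these counts.

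**Figure D3:**
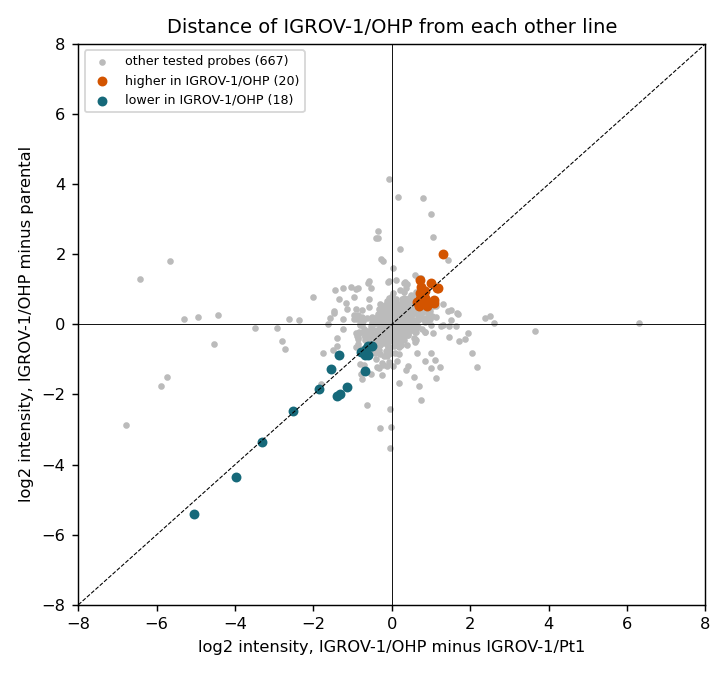
Difference of mean log2 intensity of IGROV-1/OHP from IGROV-1/Pt1 (horizontal) and from parental cells (vertical) at the 705 tested probes; 20 higher and 18 lower probes are coloured and the dashed line marks equal distance from both lines. The lower probes reach -5.42 from parental cells, and the higher probes reach 2.0.

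Arrays without overlap were not rare over the whole array. All 3 IGROV-1/OHP arrays lay above all 6 others at 55 of the 705 tested probes (7.80%) and below them at 37 (5.25%). The distance of 0.5 then left out 32 of the 55 and 13 of the 37, and the condition on IGROV-1/Pt1 and parental cells a further 3 and 6. The last 6 include probes at which IGROV-1/Pt1 itself was far from the parental cells, by up to 4.23 on the log2 scale. Dim probes that met every condition except the filter numbered 2 higher and 1 lower. At the edge of the distance limit, higher probe 20 lay 0.52 from the nearer line, with 532 ± 72.1 in IGROV-1/OHP cells, 327 ± 39.5 in IGROV-1/Pt1 cells and 375 ± 73.3 in parental cells, and the next probe outside lay at 0.49. On the lower side, probe 18 lay at -0.50, with 3210 ± 303 in IGROV-1/OHP cells, 4597 ± 869 in IGROV-1/Pt1 cells and 5054 ± 1178 in parental cells, and the next outside at -0.43. At the edge of the last condition, lower probe 13 lay -0.68 from the nearer line where IGROV-1/Pt1 and parental cells were -0.64 apart.

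A limma fit over all 705 probes (Benjamini-Hochberg adjusted p below 0.05) called 14 of the 18 lower probes against parental cells, where 5.39% of all tested probes were called lower, and 12 against IGROV-1/Pt1, where 7.94% were. Of the 20 higher probes it called 8 against parental cells, with 7.80% of all probes called higher, and 10 against IGROV-1/Pt1, with 8.65%. Both contrasts were called at 11 lower and 6 higher probes, and neither at 3 lower and 8 higher probes. Because the rule used these contrasts, the counts describe the chosen probes and support nothing. Between IGROV-1/Pt1 and parental cells 17.9% of all probes were called, and 0 of the 38 chosen probes were, which the cap in the rule favours.

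The probes were also chosen without 1 IGROV-1/OHP array, and that array was then read at them. Only its value was unused in the choice, since the 6 arrays of the other lines, against which it was read, had been used to choose the probes. Without IGROV-1/OHP replicate 1, 21 lower and 31 higher probes were chosen, and on replicate 1 itself 17 (81.0%) of the lower set lay below all 6 arrays of the other lines and 23 (74.2%) of the higher set lay above them. Over all tested probes replicate 1 lay below all 6 at 13.1% and above all 6 at 19%. Replicate 2 gave 14 of 22 lower probes (63.6%) and 18 of 30 higher probes (60%), against 22.9% and 26.3% of all tested probes. Replicate 3 gave 18 of 25 lower (72.0%) and 19 of 28 higher probes (67.9%), against 15.4% and 24.3% of all. Between 60% and 81.0% of the chosen probes held in these 6 readings. The chosen probes had the 6 other arrays on the favourable side by selection, so the shares of all tested probes are not a matched comparison, and the readings describe the chosen probes without testing them. The left-out array shares 1 distribution of intensities with the others, and the 3 readings share most of their probes and the 6 arrays of the other lines, so they are not independent of each other.

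**Figure D4:**
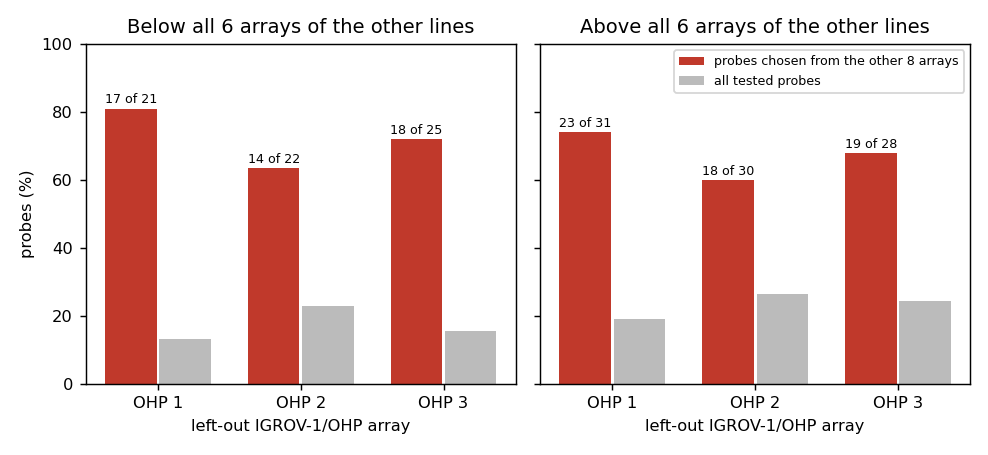
Percent of probes at which a left-out IGROV-1/OHP array lay below (left panel) or above (right panel) all 6 arrays of the other lines, for the probes chosen from the other 8 arrays (red, with counts) and for all tested probes (grey). The red bars run from 60% to 81.0% and the grey bars from 13.1% to 26.3%.

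Within the lines, the arrays were not spread alike at these probes. IGROV-1/OHP replicate 2 was the lowest array of its line at 14 of the 18 lower probes, with a median deviation of -0.30 from the line mean, and the highest at 13 of the 20 higher probes, with a median of 0.16. Over all 705 probes it was lowest at 46.1% and highest at 40.7%. IGROV-1/Pt1 replicate 3 ran the other way, as the highest array of its line at 14 of the 18 lower probes (39.9% of all probes) and the lowest at 14 of the 20 higher probes (44.1% of all probes). The first moves the IGROV-1/OHP mean away from the other lines at the chosen probes, and the second moves the IGROV-1/Pt1 mean away from IGROV-1/OHP. Parental replicate 1 was the lowest of its line at 15 of the 20 higher probes, against 54.6% of all probes. The rule takes its distance from the line means, which such arrays move, so the shares of all probes are not a matched comparison. At the 705 probes, deviations from the line mean correlated between -0.47 (IGROV-1/OHP replicate 3 with IGROV-1/Pt1 replicate 2) and 0.43 (IGROV-1/OHP replicate 3 with IGROV-1/Pt1 replicate 3) over all pairs of an IGROV-1/OHP and an IGROV-1/Pt1 array. IGROV-1/OHP replicate 2 correlated at 0.24, 0.33 and -0.38 with IGROV-1/Pt1 replicates 1, 2 and 3. Between IGROV-1/OHP and parental arrays the range was -0.14 to 0.21. Deviations of the arrays of a line cancel at each probe, so an array's correlations with the 3 arrays of another line must differ in sign. These correlations are descriptions across probes that share their arrays.

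**Figure D5:**
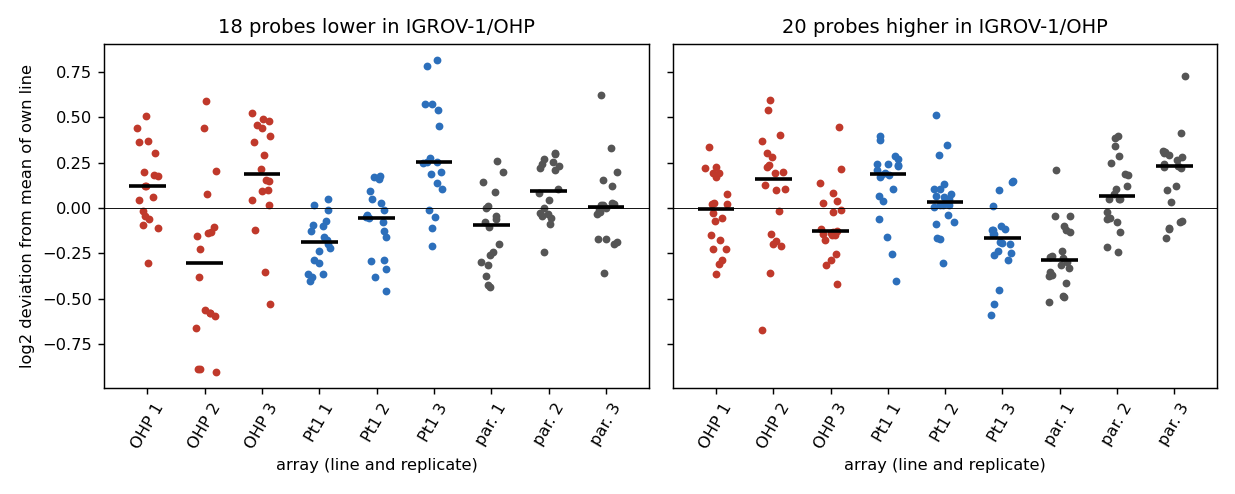
Deviation of each array from the mean log2 intensity of its own line, for the 18 lower (left panel) and 20 higher probes (right panel); points are probes and black bars medians. The median of IGROV-1/OHP replicate 2 is -0.30 at the lower and 0.16 at the higher probes, and that of IGROV-1/Pt1 replicate 3 is 0.25 and -0.16.

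The distances were therefore also taken without IGROV-1/OHP replicate 2 and IGROV-1/Pt1 replicate 3. For parental replicate 1 no median distance was taken, and without it 17 of the 20 higher and 17 of the 18 lower probes were chosen again. Without IGROV-1/OHP replicate 2 the median distance from the nearer line was 0.87 at the lower and 0.71 at the higher probes, against 1.01 and 0.72 with all arrays, and 14 of 18 and 17 of 20 still met the rule. Without IGROV-1/Pt1 replicate 3 the medians were 0.96 and 0.66. With both arrays left out they were 0.70 and 0.59, with 10 lower and 15 higher probes still meeting the rule. No probe can change direction when arrays are left out, since the choice required separation from every array of the other lines. The widest lower distance, that of ILMN_3168064, was then 4.34 on the log2 scale. The part of these arrays in the choice of the probes was not tested beyond these values.

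The spread within IGROV-1/OHP was wider at the lower probes than elsewhere, with a median SD of 0.47 on the log2 scale against 0.24 in IGROV-1/Pt1 cells and 0.24 in parental cells at the same probes. Over all tested probes this SD had a median of 0.25 in IGROV-1/OHP cells, 0.16 in IGROV-1/Pt1 cells and 0.22 in parental cells. At the higher probes it was 0.25 in IGROV-1/OHP cells, 0.23 in IGROV-1/Pt1 cells and 0.29 in parental cells. In IGROV-1/OHP, 5 of the 18 lower probes lay below the filter level on at least 1 array. The mode of all intensities on the arrays is 83.4, so such levels lie close to the floor, where a distance can be understated.

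By mean level over the lines, 4 of the 18 lower probes (22.2%) read 10000 or more, 10 read 1000 to 10000 and 4 read below 1000. Among the 20 higher probes 1 (5%) read 10000 or more, 9 read 1000 to 10000 and 10 (50%) read below 1000. Over all 705 probes the shares were 20.9%, 33.5% and 45.7%. The share of lower probes at 10000 or more was thus close to that of all tested probes. These 4 were lower probes 5, 11, 15 and 16, at which IGROV-1/OHP, by the rule below both other lines, was lower by 1.52-fold or more. All 9 arrays reached the filter level at 13 of the 18 lower and 17 of the 20 higher probes.

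Part of the choice depended on single arrays and on scaling. Lower probes 1 to 9 were all chosen again in each of the 9 runs that left out 1 array, and under each of 3 other scalings and a pseudocount of 100. In all, 12 of the 18 lower and 9 of the 20 higher probes passed every one of these, and the difference between the directions was not tested. Leaving out IGROV-1/OHP replicate 1, 2 or 3 changed the number of higher probes to 31, 30 or 28. Of these, 20, 17 and 19 were probes described here. Without IGROV-1/Pt1 replicate 1 the number was 30. Separation is easier to meet with fewer arrays. After cyclic loess there were 14 higher and 23 lower probes, which held 14 of the 20 and 18 of the 18.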

How the data were processed

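Total RNA was extracted with Trizol, cleaned on a column with DNase treatment and labelled with biotin, per the labels' protocols, and BeadStudio (version not stated) is the tool listed in the submitters' processing notes. The deposited values are linear probe intensities, 1 column per sample, at 1145 probes. No background or normalization setting is given in the sources used here. At any rank the 9 arrays differed by at most 2.69%, the form that quantile normalization gives, so nothing further was done to them, and a change in total miRNA cannot be seen. A second table, of signals and detection p-values, has 18 columns named by chip position that match no label and was not used. The number of arrays limits the precision.

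Groups came from the sample titles. The filter level of 167 is 2 times the mode of all intensities (83.4), not a detection call. The members, rules and lists were chosen with earlier results of these data known. Probes were named by a rule that allows the first 2 identifiers in each direction where probes lack miRNA names. Planned lists of miRNA families and cell type markers could not be matched and gave no result. Log2 intensities with no pseudocount were modelled as 3 line means in limma 3.58.1 (R 4.3.3, 6 residual degrees of freedom, eBayes, two-sided, Benjamini-Hochberg over 705 probes, threshold 0.05). The fit and the rule were run on simulated data to check the code. That simulation had independent noise and shifted only IGROV-1/OHP, unlike these arrays, so it does not bear on the results. Deviations of same-numbered arrays correlated between -0.27 and 0.43, with mixed signs, and the main fit did not take replicate numbers as pairs. A limit of 0.1 was passed between IGROV-1/OHP and IGROV-1/Pt1 at replicates 2 (0.33) and 3 (0.43). It was also passed between IGROV-1/OHP and parental cells at replicate 2 (0.12). A shared replicate effect is therefore not excluded, and a fit with replicate number as a block is given below. Alternatives covered the filter, scaling, a pseudocount of 100, the distance limit, array weights, the variance prior, a replicate block and leaving out each array.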

Additional observations from a re-analysis of the deposited data

Results flagged for a closer look

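At 2 of the 20 higher probes both resistant lines left the range of the parental arrays, in opposite directions. All 3 IGROV-1/OHP arrays lay above and all 3 IGROV-1/Pt1 arrays below the 3 parental arrays, and this drew attention to them. The rule fixed the IGROV-1/OHP part of this pattern. IGROV-1/Pt1 lay wholly below the parental arrays at 20.3% of the 705 tested probes, and the whole pattern was present at 9 of them (1.28%), but the counts are not comparable because of that choice. At higher probe 14 the log2 difference from parental cells was 0.65 in IGROV-1/OHP cells and -0.41 in IGROV-1/Pt1 cells, and at higher probe 19 it was 0.53 in IGROV-1/OHP cells and -0.37 in IGROV-1/Pt1 cells. The limma fit called IGROV-1/Pt1 against parental cells at neither probe (adjusted p 0.23 and 0.088). It called IGROV-1/OHP against parental cells at probe 19 (0.033) but not at probe 14 (0.079). At probe 14 the highest IGROV-1/Pt1 array read 664 and the lowest parental array 685. The rule used the differences of IGROV-1/OHP from both lines and capped that between IGROV-1/Pt1 and parental cells. These adjusted p values therefore describe the chosen probes and support nothing, and the pattern was not tested further. Both comparisons use the same parental arrays.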

How the results depend on the processing

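Under the other filters, scalings and the pseudocount, the number of higher probes was 14 to 22 and of lower probes 13 to 23, each within 1.5 times the reported 20 and 18. A distance limit of 1 left 3 higher and 9 lower probes, by its own construction. Leaving out 1 array gave 18 to 31 higher and 15 to 25 lower probes. Of the 157 probes chosen without 1 IGROV-1/OHP array, counted once per run, 69.4% held on that array, and 66.3% to 72.7% did so under the other filters, scalings and the pseudocount. A probe described here holds by the rule itself whenever it is chosen, so these shares describe the choice without testing it. With 100 added before log2, the distance from the nearer line was -4.49 at ILMN_3168064 and -3.23 at ILMN_3168701, as the added value compresses dim levels.

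Over all tested probes, limma called 93 in the comparison of IGROV-1/OHP with parental cells, 117 in that of IGROV-1/OHP with IGROV-1/Pt1, and 76 higher and 50 lower in that of IGROV-1/Pt1 with parental cells. Array weights gave 139, 200 and 219. Leaving out 1 array gave 60 to 101, 60 to 132 and 92 to 149 calls. In the first of these, 60, 97 and 67 calls came without IGROV-1/OHP replicates 1, 2 and 3. Without parental replicates 1, 2 and 3 there were 64, 63 and 62, and without those of IGROV-1/Pt1 75, 76 and 101. In the second, 62, 60 and 69 came without IGROV-1/Pt1 replicates 1, 2 and 3. The replicate block gave 67, 77 and 118 calls, and 24 higher and 20 lower probes when 1 sign within all replicate numbers took the place of separate arrays. The cause of these shifts was not tested. After cyclic loess 50 of the 127 probes called between the resistant lines were higher in IGROV-1/OHP, against 61 of 117 as reported, and 49 of 116 were after centring on the median log2 ratio, a scaling chosen after seeing the data. The planned background correction could not be run, since that table's columns match no sample.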
